A study of Mus musculus with 7 samples.

Results

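The 42 genes described here make and regulate blood clotting factors and complement in the liver, and they were chosen by name: the vitamin K-dependent carboxylase *Ggcx*, the vitamin K reductases, the clotting factors and their regulators, and the complement components. Of these, 39 were measured, among 19938 genes tested. A gene was measured where a probe set carried its symbol alone, and the brightest probe set stood for the gene. *Klkb1* shared its only probe set with another gene, and no probe set was listed for *Cpb2* and *C3*. *C5* was measured under its mouse symbol *Hc* and *C1s* under *C1s1*. The list was drawn up with earlier results of these data known. *Ggcx* had been listed by the study among the genes most reduced on the same arrays, so its fall is not independent evidence of its direction.

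Primary hepatocytes of male C57BL/6J mice, isolated with collagenase and a Percoll gradient, were transfected with 1 µg of a miR-709 mimic (4 arrays, A to D) or with 1 µg of Cel-239b, a worm miRNA that served as the control (3 arrays, B to D). The same isolation procedure and transfection method are described for both groups, but whether the groups shared an isolation is not stated. No untransfected cells were analysed here, and the age of the mice is not given in the sources used here. Total RNA was hybridised 24 h after transfection to Affymetrix mouse gene arrays, with 1 array per replicate. The labels do not say whether the replicates came from separate mice or separate isolations, so each p-value measures only the spread between these arrays, which may be technical. Mature miR-709 itself was not measured on these arrays.

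In hepatocytes the carboxylase, a membrane enzyme of the endoplasmic reticulum, turns glutamate residues of newly made clotting factors into gamma-carboxyglutamate (Gla). The reaction consumes reduced vitamin K, which the epoxide reductases regenerate, and warfarin blocks that step. Carboxylated Gla domains bind calcium and attach the factors to membranes, so the modification acts on the protein and is not part of how much mRNA of a factor is made. The question addressed by the comparison was therefore narrow: whether the mRNAs of the factors that the carboxylase modifies changed along with its own mRNA. Complement, the other group of secreted liver proteases and pore-forming proteins measured here, does not depend on vitamin K.

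All values below are log2 signals, and a difference is the miR-709 mean minus the Cel-239b mean. Array medians lay between 5.04 and 5.07, arrays correlated at 0.9965 to 0.9979 within a group and at 0.9951 to 0.9966 between groups, and the median standard error of a difference was 0.076. The hepatocyte marker *Alb* read 13.41 to 13.48 on the miR-709 arrays and 13.46 to 13.52 on the Cel-239b arrays. Marker lists of other cells had low mean signals, at 4.89 to 4.94 with miR-709 and 4.85 to 4.97 with Cel-239b for endothelial cells, and at 4.39 to 4.49 with miR-709 and 4.38 to 4.43 with Cel-239b for macrophages and leukocytes. Single genes of such lists were bright: over all 7 arrays *Cd68* of macrophages read 10.44 to 10.82, *Krt19* and *Sox9* of bile duct cells 7.79 to 9.71 and 7.44 to 8.01, and *Ecm1* and *Acta2* of stellate cells 8.0 to 8.45 and 6.25 to 7.89. Since the RNA came from whole cultures, fewer cells of a type and less RNA per cell cannot be told apart.

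The carboxylase mRNA fell with miR-709, and none of the factors that the enzyme modifies was called lower beside it. Of the 39 genes, 1 was called lower (*Ggcx*) and 3 were called higher (*Proz*, *F11* and *C6*) by limma at a Benjamini-Hochberg adjusted p under 0.05 over all genes, and 35 were not called. Over all genes tested, 1.47% were called lower and 1.81% higher. The genes called higher differed by 1.20-fold to 1.26-fold, and *Ggcx* was 2.20-fold lower.

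*Ggcx* read 7.03, 7.14, 6.55 and 6.60 on miR-709 arrays A to D, against 7.97, 7.85 and 8.09 on Cel-239b arrays B to D. All miR-709 arrays lay below all Cel-239b arrays, and arrays C and D were lower than A and B. The mean was 6.83 ± 0.30 with miR-709 (SD, n = 4) and 7.97 ± 0.12 with Cel-239b (SD, n = 3), a difference of −1.14 (SE 0.15, 95% interval −1.47 to −0.81) with a limma adjusted p of 0.00282. It ranked 27 from the lowest difference of all genes. In 17 alternative analyses the difference lay between −1.24 and −0.89, and limma called it in each of the 16 that used its moderated variances. The methods' t-test, run on the same values without moderated variances, gave an unadjusted p of 0.00167 and an adjusted p of 0.084. It need not equal the study's own array test, by which the study listed *Ggcx* as significantly reduced.

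The vitamin K epoxide reductases showed no such fall. *Vkorc1*, the warfarin target, read 8.72, 8.80, 8.61 and 8.50 on miR-709 arrays A to D, against 8.45, 8.54 and 8.60 on Cel-239b arrays B to D. The groups overlapped, and the difference was 0.13 (SE 0.08, 95% interval −0.05 to 0.31, limma adjusted p = 0.518). Its paralogue *Vkorc1l1*, which also reduces vitamin K, read 9.06, 9.13, 9.05 and 9.09 with miR-709, against 9.12, 9.08 and 9.13 with Cel-239b. Again the groups overlapped, at a difference of −0.03 (95% interval −0.15 to 0.09, limma adjusted p = 0.864).

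The 7 Gla substrates come next. None was called lower by limma, 1 was called higher and 6 were not called, where limma called 1.47% of all genes lower and 1.81% higher. The methods' t-test called none of the 7, but it called only 1.13% of all genes and did not call *Ggcx* either. At such shares, 7 genes without a lower call say little about the substrates. An unadjusted limma p under 0.05 was reached by 2 (*F9* and *Proz*), both higher, against 15.0% of all genes in either direction. Differences were above 0 for 6 of the 7, with a median of 0.09, and for 54.6% of all genes, with a median of 0.01. No 95% interval of a substrate reached below −0.22, whereas that of *Ggcx* ended at −0.81.

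**Figure D1:**
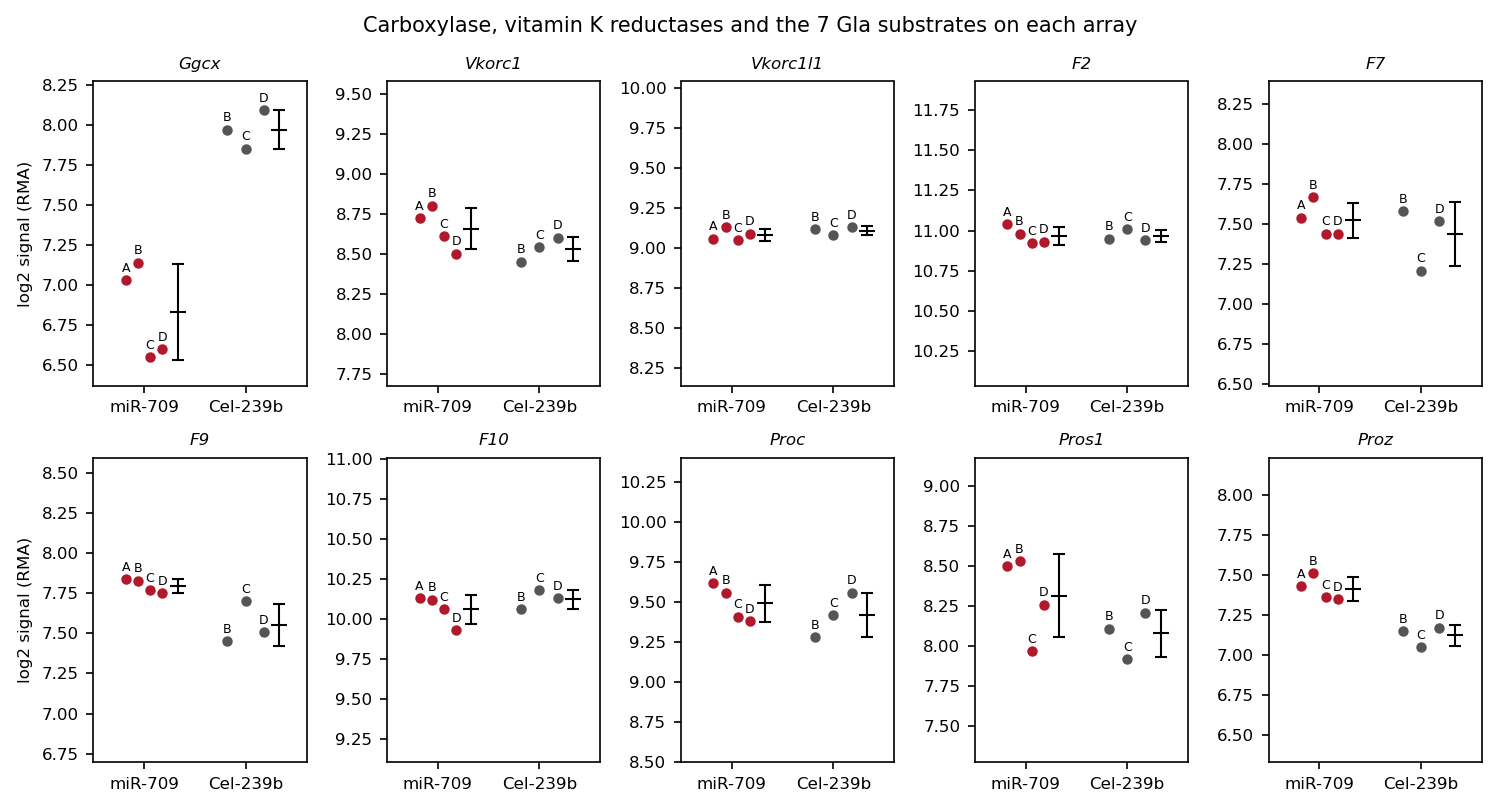
Log2 signal (y axis) of *Ggcx*, the vitamin K reductases and the 7 Gla substrates on each array, miR-709 (red, left of each panel) and Cel-239b (grey, right). Letters name the replicate, bars give the mean ± SD (n = 4 and n = 3), and each panel spans the same height. *Ggcx* lies between 6.55 and 7.14 with miR-709 and between 7.85 and 8.09 with Cel-239b, while the means of each substrate differ by at most 0.29.

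Among the procoagulant substrates, *F2* encodes prothrombin, the precursor of thrombin. It read 11.04, 10.98, 10.92 and 10.93 on miR-709 arrays A to D, against 10.95, 11.01 and 10.94 on Cel-239b arrays B to D, a difference of 0.00 (SE 0.06, 95% interval −0.13 to 0.13, limma adjusted p = 0.997). The groups overlapped fully. *F10*, whose active form cleaves prothrombin, read 10.13, 10.12, 10.06 and 9.93 with miR-709, against 10.06, 10.18 and 10.13 with Cel-239b. It was the only substrate with a difference below 0, at −0.06 (95% interval −0.22 to 0.09, limma adjusted p = 0.725), and array D alone lay below the Cel-239b range.

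*F7*, the protease that tissue factor activates to start clotting, read 7.54, 7.67, 7.44 and 7.44 on miR-709 arrays A to D, against 7.58, 7.21 and 7.52 on Cel-239b arrays B to D. Its difference of 0.09 (95% interval −0.14 to 0.31, limma adjusted p = 0.748) came with overlapping groups. *F9*, the factor lacking in haemophilia B, read 7.84, 7.83, 7.77 and 7.75 with miR-709, against 7.45, 7.70 and 7.51 with Cel-239b. Here every miR-709 array lay above every Cel-239b array, but the difference of 0.24 (SE 0.07, 95% interval 0.09 to 0.40) did not pass the adjustment over all genes (limma adjusted p = 0.122).

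Of the anticoagulant substrates, *Proc* encodes protein C, which inactivates the cofactors of clotting. It read 9.62, 9.56, 9.41 and 9.38 on miR-709 arrays A to D, against 9.28, 9.42 and 9.56 on Cel-239b arrays B to D, a difference of 0.07 (95% interval −0.12 to 0.27, limma adjusted p = 0.761) with overlapping groups. *Pros1* encodes protein S, the cofactor of protein C, and read 8.50, 8.53, 7.97 and 8.26 with miR-709, against 8.11, 7.92 and 8.21 with Cel-239b. It varied most within the miR-709 group of the 7 substrates, with arrays A and B high and array C inside the Cel-239b range, and its difference of 0.24 had an interval of −0.07 to 0.54 (limma adjusted p = 0.464).

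*Proz* was the substrate that rose. It encodes protein Z, which helps its inhibitor to block activated factor X. It read 7.43, 7.51, 7.36 and 7.35 on miR-709 arrays A to D, against 7.15, 7.05 and 7.17 on Cel-239b arrays B to D, and the groups did not overlap. The means were 7.41 ± 0.07 with miR-709 (SD, n = 4) and 7.12 ± 0.06 with Cel-239b (SD, n = 3), a 1.22-fold difference (0.29 on the log2 scale, SE 0.06, limma adjusted p = 0.0422). The call was kept in 5 of 17 alternatives and lost whenever any 1 array was left out, where the adjusted p lay between 0.0673 and 0.158, although the difference stayed between 0.25 and 0.31.

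The clotting members that do not carry a Gla domain are the initiator and cofactors, the contact system, fibrinogen with factor XIII, and fibrinolysis. Of these 13 measured genes, 1 was called higher and none lower by limma, where 1.81% of all genes were called higher and 1.47% lower. An unadjusted limma p under 0.05 was reached by 6, against 15.0% of all genes. The median difference was 0.09, against 0.01 over all genes. The initiator and cofactor genes were the only role in which every difference lay below 0. *F3*, which encodes tissue factor, read 8.25, 8.48, 8.38 and 8.19 on miR-709 arrays A to D, against 8.78, 8.58 and 8.49 on Cel-239b arrays B to D. The groups were separate by a margin of only 8.48 against 8.49, and the difference of −0.29 (SE 0.09) was not called (limma adjusted p = 0.156). *F5* and *F8*, the cofactors of the proteases that make thrombin and activated factor X, differed by −0.04 and −0.03, with *F8* near the floor of the arrays at 4.02 to 4.31, and both turned above 0 without miR-709 array C.

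The contact system holds *F11*, *F12* and *Kng1*, whose products set off the intrinsic arm of clotting and release bradykinin. *F11* was called higher. It read 8.25, 8.29, 8.23 and 8.23 on miR-709 arrays A to D, against 7.95, 8.04 and 7.96 on Cel-239b arrays B to D, so the groups stood clearly apart. The means were 8.25 ± 0.03 with miR-709 (SD, n = 4) and 7.98 ± 0.05 with Cel-239b (SD, n = 3), a 1.20-fold difference (0.27 on the log2 scale, SE 0.05, limma adjusted p = 0.0297). It was the 1 member that the methods' t-test also called after Benjamini-Hochberg adjustment (adjusted p = 0.035), where 1.13% of all genes were called. In limma fits that each left out 1 array, 6 of 7 lost the call, at adjusted p of 0.0683 to 0.0928. *F12* and *Kng1* differed by 0.20 and 0.18 and were not called (limma adjusted p = 0.215 and 0.237), *Kng1* with all miR-709 arrays above all Cel-239b arrays.

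The 3 fibrinogen chains differed by unequal amounts. *Fga*, the alpha chain, read 8.48, 8.43, 8.07 and 8.08 on miR-709 arrays A to D, against 7.78, 7.98 and 7.74 on Cel-239b arrays B to D. Arrays A and B were higher than C and D, and C and D lay just above the Cel-239b range. The difference of 0.43 (SE 0.12, limma adjusted p = 0.0988) was the highest of the 39 genes but was not called. The gene has a dimmer probe set, with a mean of 7.48 against 8.08, which differed by 0.74 (limma adjusted p = 0.0109 over all probe sets), and the mean of both probe sets was called at 0.59 (limma adjusted p = 0.025). *Fgb* and *Fgg*, the beta and gamma chains, differed by 0.03 and 0.09 with overlapping groups. *F13b*, the carrier subunit of the factor that cross-links fibrin, differed by 0.23 (limma adjusted p = 0.234) without overlap.

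In the fibrinolysis role, *Hrg*, a plasma glycoprotein that binds plasminogen, read 8.83, 8.71, 8.68 and 8.62 on miR-709 arrays A to D, against 8.43, 8.67 and 8.67 on Cel-239b arrays B to D. The difference was 0.12 (limma adjusted p = 0.542), with overlap. *Plg*, which encodes plasminogen, differed by 0.08, and *Tfpi*, the inhibitor of tissue factor, by 0.06 at a dim 3.93 to 4.12.

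**Figure D2:**
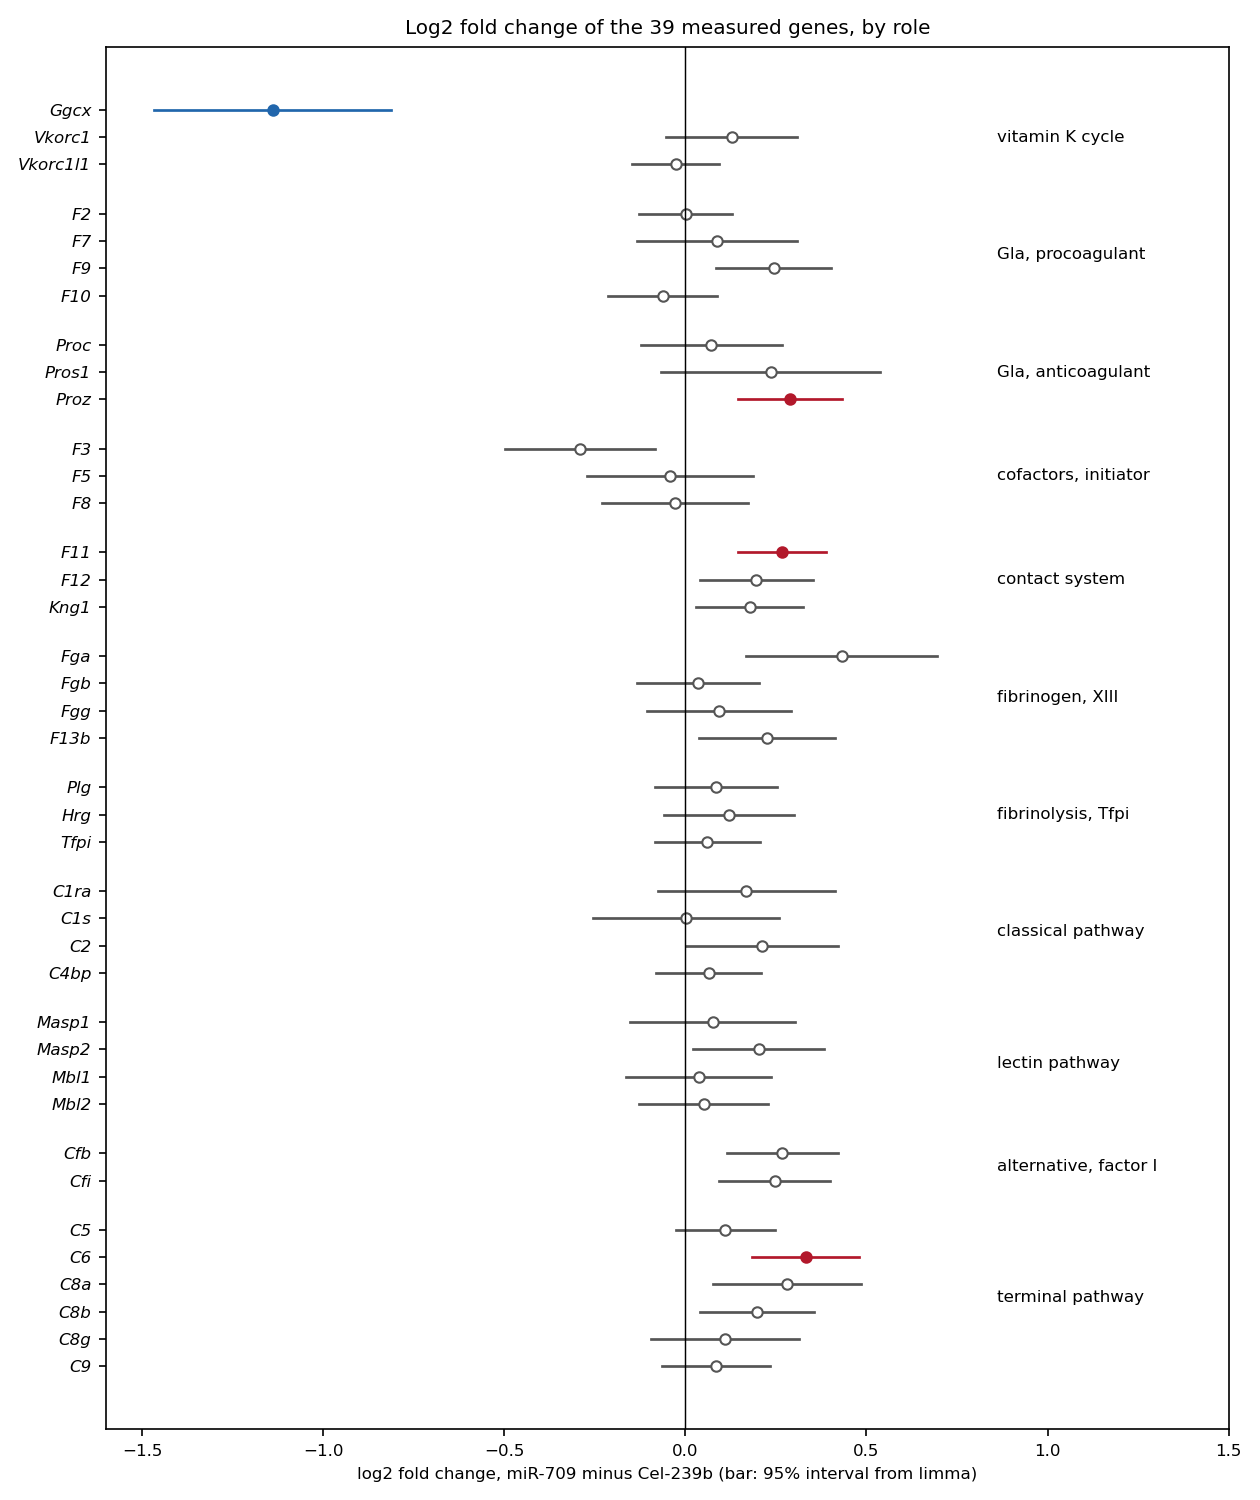
Difference in log2 signal (x axis, miR-709 minus Cel-239b) of the 39 measured genes, grouped by role, each with its 95% interval from limma. Filled points passed the adjusted p of 0.05 (blue lower, red higher) and open points did not. *Ggcx* stands at −1.14, the 3 genes called higher lie between 0.27 and 0.33, and 33 of the 39 points lie above 0.

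All 16 measured complement genes had differences above 0, by small amounts, where 54.6% of all genes lay above 0. Their differences ran from 0.00 (*C1s1*) to 0.33 (*C6*) with a median of 0.14, against 0.01 over all genes. Limma called 1 of 16 higher and none lower, where 1.81% of all genes were called higher and 1.47% lower. An unadjusted limma p under 0.05 was reached by 7, against 15.0% of all genes. Above 0 were 15 of 16 with cyclic loess normalisation, since *C1s1* turned to −0.04, and 14 to 16 when 1 array was left out. The terminal component *C6*, part of the pore that complement assembles, read 5.63, 5.52, 5.47 and 5.52 on miR-709 arrays A to D, against 5.11, 5.21 and 5.29 on Cel-239b arrays B to D. The groups did not overlap, at means of 5.53 ± 0.07 with miR-709 (SD, n = 4) and 5.20 ± 0.09 with Cel-239b (SD, n = 3). The 1.26-fold difference (0.33 on the log2 scale, SE 0.07) had a limma adjusted p of 0.0273, and in 6 of 7 fits that left out 1 array the call was lost, at adjusted p of 0.0513 to 0.100. *C6* was also the dimmest of the called members, near the array medians.

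The other terminal genes are *Hc*, which is complement component C5 and is split to start the pore, and the pore subunits *C8a*, *C8b*, *C8g* and *C9*. They differed by 0.09 to 0.28 and were not called, with limma adjusted p of 0.171 to 0.639. *C8a* and *C8b*, at 0.28 and 0.20, had no overlap between groups, the groups of *Hc* met at 8.30, and *C8g* and *C9* overlapped.

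*Cfb*, the protease of the alternative pathway, came close to the threshold. It read 11.10, 11.11, 11.10 and 11.03 on miR-709 arrays A to D, against 10.79, 10.71 and 10.95 on Cel-239b arrays B to D. All miR-709 arrays lay above the others, and Cel-239b array D was the nearest. The difference was 0.27 (SE 0.07, limma adjusted p = 0.0774), and it was called in 3 of 17 alternatives, at adjusted p of 0.0407 with limma-trend, 0.0428 among genes with a mean of at least 5, and 0.0309 without Cel-239b array D. *Cfi*, which inactivates C3b and C4b, differed by 0.25 (limma adjusted p = 0.105), also without overlap.

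In the classical pathway, *C2*, a protease of the C3 convertase, read 7.36, 7.36, 7.64 and 7.49 on miR-709 arrays A to D, against 7.36, 7.08 and 7.31 on Cel-239b arrays B to D. Arrays C and D were the higher ones, contrary to most of the genes, and the difference of 0.21 was not called (limma adjusted p = 0.324). The proteases *C1ra* and *C1s1* differed by 0.17 and 0.00, and the inhibitor *C4bp* by 0.06. In the lectin pathway, the protease *Masp2* read 9.25, 9.20, 9.08 and 9.04 with miR-709, against 8.79, 9.03 and 9.0 with Cel-239b, a difference of 0.20 (limma adjusted p = 0.270). The groups were separate, though miR-709 array D (9.04) and Cel-239b array C (9.03) were nearly level. *Masp1* and the mannose-binding lectins *Mbl1* and *Mbl2* differed by 0.04 to 0.08, with *Mbl1* near the floor of the arrays at 3.77 to 4.17.

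More of the genes differed at weaker thresholds than the calls show. All miR-709 arrays lay above all Cel-239b arrays for 12 of the 39 genes and below for 2 (*Ggcx* and *F3*), against 7.44% above and 4.91% below over all genes. An unadjusted limma p under 0.05 was reached by 16 of 39, against 15.0% of all genes. Differences above 0 were counted for 33 of 39 (84.6%) and for 54.6% of all genes, with medians of 0.11 and 0.01. With cyclic loess these were 30 of 39 (76.9%) and 49.9%, with medians of 0.07 for the 39 genes and 0.00 for all genes. Among genes whose mean over all arrays reached 5 on the log2 scale, which 36 of the 39 did, 1 was called lower and 4 higher (*Cfb* was the addition), where 3.23% of 10970 genes were called lower and 4.42% higher. No test was made of the list as a whole, and genes made by the same cells are not independent.

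The miR-709 arrays were not alike in these genes. Arrays A and B both lay above arrays C and D for 27 of the 39 genes (69.2%), including 7 of 7 Gla substrates, and both below for 1 (*C2*), against 18.0% above and 17.3% below over all genes. The mean deviation of the 39 genes from their Cel-239b mean was 0.15 on array A, 0.17 on array B, 0.02 on array C and 0.03 on array D. For the 7 Gla substrates it was 0.20, 0.21, 0.03 and 0.05. Other lists, described below, were also higher on A and B. The deviations on arrays A to D were 0.217, 0.201, 0.085 and 0.130 for acute phase genes. They were 0.153, 0.168, 0.115 and 0.063 for hepatocyte markers, and 0.150, 0.151, −0.006 and 0.055 for liver transcription factors. The further complement genes had 0.034, 0.021, 0.047 and 0.033. A list of 24 measured interferon response genes split opposite to the 39 genes. Arrays C and D were above A and B for 23 of them, and the mean signal of the list was 7.66, 7.72, 8.61 and 8.61 on miR-709 arrays A to D, against 7.58, 7.70 and 7.96 on Cel-239b arrays B to D. None of the 24 was called by limma or by the methods' t-test, where limma called 1.81% of all genes higher and 1.47% lower. An unadjusted limma p under 0.05 was reached by 5, against 15.0% of all genes. The part of this split in the results was not tested.

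Without arrays C and D, the difference of *Ggcx* was −0.89 (limma adjusted p = 0.0199) and the median of the Gla substrates was 0.17, with 7 of 7 above 0. None of the 39 genes was then called higher, where 76 of 19938 genes were. Differences were then above 0 for 36 of the 39 genes, with a median of 0.17, and for 52.5% of all genes.

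**Figure D3:**
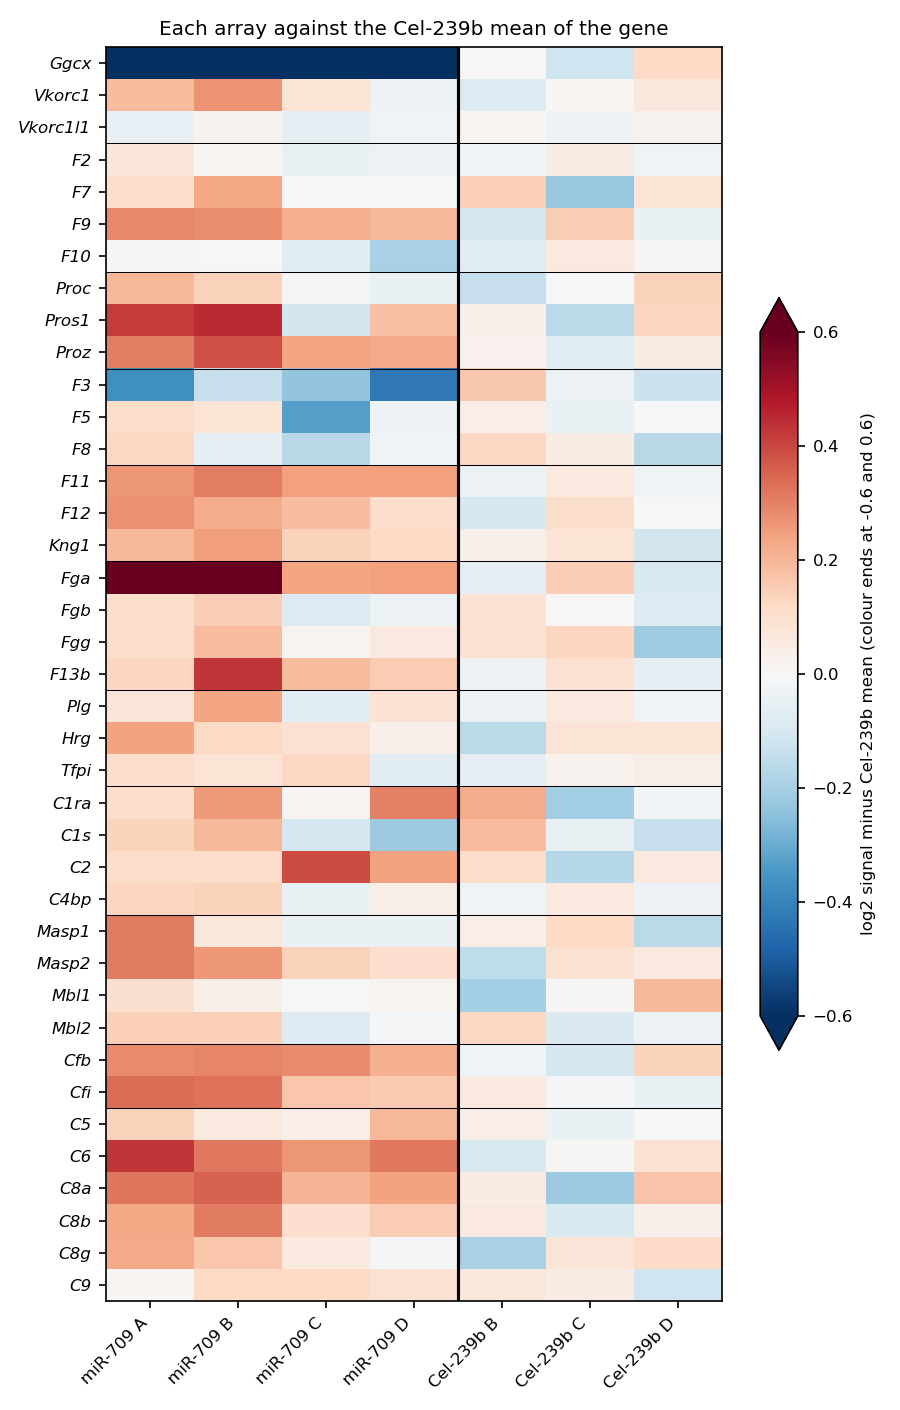
Log2 signal of each of the 39 genes (rows, ordered by role with lines between roles) on each array (columns, miR-709 left of the black line, Cel-239b right), minus the Cel-239b mean of the gene. The colour scale ends at −0.6 and 0.6, so the *Ggcx* row on the miR-709 arrays and *Fga* on array A are past its ends. Columns A and B are redder than C and D, and *Ggcx* and *F3* are the rows that are blue on all 4 miR-709 arrays and below every Cel-239b array.

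Genes of the same pathways outside the 42 were also looked up. For the counts in these lists, 1.81% of all genes were called higher and 1.47% lower by limma. An unadjusted limma p under 0.05 was reached by 15.0% of all genes. Of 7 further vitamin K genes, 6 were measured, 2 were called higher and none lower. *Calu* encodes calumenin, a calcium-binding protein of the endoplasmic reticulum known in rat liver to hold back the vitamin K cycle. It read 11.13, 11.11, 11.06 and 11.12 on miR-709 arrays A to D, against 10.48, 10.42 and 10.54 on Cel-239b arrays B to D. The groups were far apart, with means of 11.11 ± 0.03 for miR-709 (SD, n = 4) and 10.48 ± 0.06 for Cel-239b (SD, n = 3), a 1.54-fold difference (0.63 on the log2 scale, SE 0.06, limma adjusted p = 0.00041) that was called in 17 of 17 alternatives. *Nqo2*, a quinone reductase, read 9.78, 9.78, 9.64 and 9.78 with miR-709, against 9.51, 9.48 and 9.45 with Cel-239b. It was called at a 1.20-fold difference (limma adjusted p = 0.0458), but in only 5 of 17 alternatives. *Nqo1* and *Aifm2*, which also reduce quinones, differed by 0.33 and 0.21 and were not called (limma adjusted p = 0.398 and 0.354).

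Of 9 further genes of Gla proteins, 6 were measured and none was called by limma or by the methods' t-test, while 1 had an unadjusted limma p under 0.05. Their median difference was 0.09. *Gas6*, a growth factor with a Gla domain, differed by 0.17 (limma adjusted p = 0.335).

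Of 24 further clotting and fibrinolysis genes, 21 were measured, 2 were called lower and none higher by limma, and 7 had an unadjusted p under 0.05. Neither called gene encodes a plasma clotting factor. *Plaur*, the receptor that holds urokinase at the cell surface, read 9.82, 9.78, 9.59 and 9.71 on miR-709 arrays A to D, against 10.39, 10.47 and 10.60 on Cel-239b arrays B to D. The separation was wide, at 9.73 ± 0.10 with miR-709 (SD, n = 4) and 10.49 ± 0.11 with Cel-239b (SD, n = 3), 1.70-fold lower (−0.76 on the log2 scale, SE 0.08, limma adjusted p = 0.00073). *F2r*, the receptor that thrombin cleaves on cells, read 9.10, 9.13, 8.75 and 8.84 with miR-709, against 9.47, 9.63 and 9.60 with Cel-239b. It fell by 0.61 on the log2 scale (SE 0.10, limma adjusted p = 0.0104), again with arrays C and D lowest. *Plaur* was called in 17 and *F2r* in 13 of 17 alternatives. The serpins *Serpinc1* (antithrombin) and *Serpina10*, the inhibitor that works with protein Z, differed by 0.11 and 0.33 and were not called (limma adjusted p = 0.444 and 0.109).

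Of 34 further complement genes, 29 were measured and none was called by limma or by the methods' t-test, while 1 had an unadjusted limma p under 0.05. Their median difference was 0.04, with 17 above 0 (58.6%) and 12 below, where 54.6% of all genes lay above 0. The abundant *Clu*, *Vtn* and *Serping1*, whose products hold complement in check, differed by −0.01, 0.12 and 0.11.

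**Figure D4:**
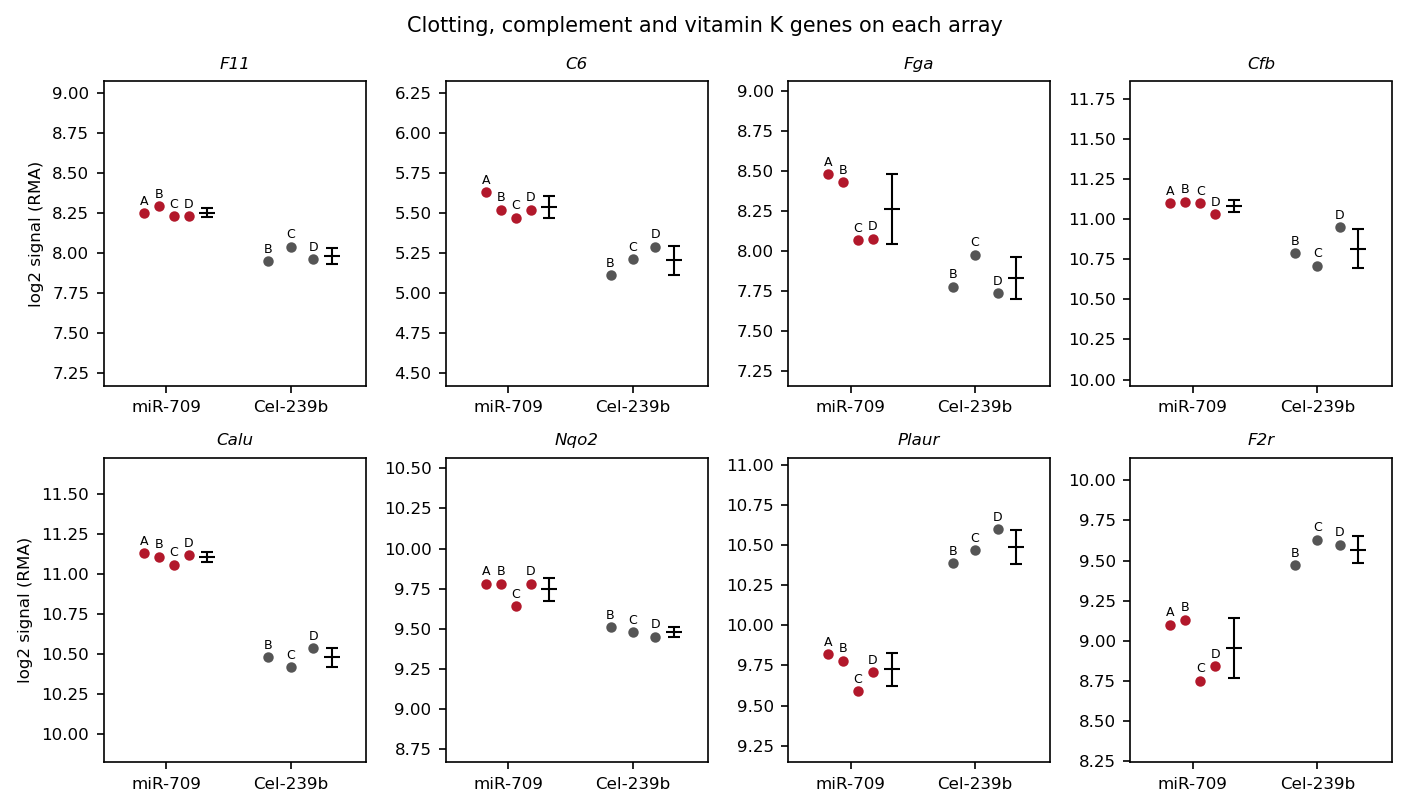
Log2 signal (y axis) on each array of *F11*, *C6*, *Fga* and *Cfb* (upper row) and of the further genes *Calu*, *Nqo2*, *Plaur* and *F2r* (lower row), miR-709 in red at the left and Cel-239b in grey at the right of each panel. Letters name the replicate, bars give the mean ± SD (n = 4 and n = 3), and each panel spans the same height. *Calu* lies between 11.06 and 11.13 with miR-709 and between 10.42 and 10.54 with Cel-239b, and *Plaur* and *F2r* lie lower with miR-709 on every array.

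Lists of acute phase genes and of markers of hepatocytes and other cells were set beside these values. In a list of 19 acute phase genes, 3 were called higher (*Hp*, *Apcs* and *Steap4*, by 0.38, 0.42 and 0.94) and 1 lower (*Il1rn*, by −0.30), with a median of 0.09. Over all genes, 1.81% were called higher and 1.47% lower. Differences were above 0 for 17 of the 19 genes, and for 54.6% of all genes. *Hp*, *Apcs*, *Steap4* and *Il1rn* were called in 13, 10, 14 and 6 of 17 alternatives, and *Il1rn* read near the array medians, at 4.85 to 5.30. Of 14 measured hepatocyte markers, *Cps1* and *Tat* were called higher, by 0.68 and 0.62, and the mean of the list was 11.01 to 11.12 on the miR-709 arrays and 10.91 to 11.01 on the Cel-239b arrays. The calls were kept in 11 (*Cps1*) and 14 (*Tat*) of 17 alternatives. In the lists for endothelial cells (14 measured), macrophages and leukocytes (13) and platelets (4) no gene was called by limma or by the methods' t-test, and 2, 0 and 0 genes had an unadjusted limma p under 0.05. Among 13 genes of stellate cells and 6 of bile duct cells, *Acta2* (−1.34) and *Krt19* (−1.23) were called lower, both of which the study had listed from these arrays. *Acta2* was called in 17 and *Krt19* in 8 of 17 alternatives. The stellate list, *Acta2* included, had a mean of 4.88 to 4.93 with miR-709 and 4.98 to 5.02 with Cel-239b, but its median difference was −0.02. The bile duct list had a mean of 5.42 to 5.81 with miR-709 and 5.90 to 6.04 with Cel-239b, and its median difference was −0.27. The part of such cells in the values of *F3*, *Plaur* and *F2r*, which other cells also make, was not tested.

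Of 10 measured liver transcription factors, 1 was called higher and none lower by limma, where 1.81% and 1.47% of all genes were. *Hnf4a*, the nuclear receptor that many genes of secreted hepatocyte proteins need, read 9.94, 9.95, 9.93 and 10.03 on miR-709 arrays A to D, against 9.45, 9.43 and 9.31 on Cel-239b arrays B to D. The groups did not overlap, and it rose 1.48-fold (0.57 on the log2 scale, SE 0.06, limma adjusted p = 0.00104). *Foxa1*, *Foxa2* and *Foxa3*, pioneer factors of liver genes, differed by −0.02, −0.06 and −0.16 and were not called (limma adjusted p = 0.916, 0.724 and 0.479). *Cebpa*, another liver regulator, read 7.41, 7.43, 7.52 and 7.41 on miR-709 arrays A to D, against 7.09, 7.25 and 7.23 on Cel-239b arrays B to D. Its groups did not overlap, but the difference of 0.25 was not called (limma adjusted p = 0.0728) and passed in 1 of 17 alternatives.

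Promoter windows from 250 bases before to 50 after the RefSeq start (build GRCm38.p6) were held for 32 of the 39 genes and searched on both strands for short motifs of these factors. The HNF4 motif CAAAGTCCA was found in none of the 32 and in 0.555% of 27025 genes, and the C/EBP motif TTGCGCAA in none and in 0.207%. The HNF1 motif GTTAATNAT was found in 4 (*C4bp*, *F13b*, *Fga* and *Hc*) and in 0.94% of all genes. The FOXA motif TGTTTAC was found in 2 (*F11* and *Vkorc1*) and in 4.05% of all genes, and its variant TGTTTGC in 3 (*C1s1*, *C8b* and *F11*) and in 5.76%. The stretches with the HNF1 motif, and that of the called gene *F11*, are shown 5′ to 3′ on the strand of the gene with the match on either strand in capitals, to show which letters were matched and how near the start they lie.
*C4bp* (chr1:130661659-130661697, minus strand): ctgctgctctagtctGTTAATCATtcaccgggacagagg
*F13b* (chr1:139501638-139501676, plus strand): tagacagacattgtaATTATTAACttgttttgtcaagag
*Fga* (chr3:83026092-83026130, plus strand): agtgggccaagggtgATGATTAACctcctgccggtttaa
*Hc* (chr2:35061466-35061504, minus strand): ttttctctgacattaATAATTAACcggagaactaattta
*F11* (chr8:45262035-45262071, minus strand): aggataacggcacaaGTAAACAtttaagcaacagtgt
The matches began 64, 54, 46, 77 and 25 bases before the start of *C4bp*, *F13b*, *Fga*, *Hc* and *F11*. Of these genes only *F11* was called, and a match describes letters in a window, not a bound site.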

How the data were processed

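Primary hepatocytes received miR-709 (4 arrays) or Cel-239b (3 arrays). The authors deposited log2 signals per probe set, made with RMA in Partek per the labels, with versions not given in the sources used here. RMA corrects background, quantile-normalises and merges probes, which can shrink differences of dim genes. Of 28853 probe sets, 21789 carried 1 gene symbol and were kept, and the brightest stood for each of 19938 genes. Groups were compared with limma (version 3.58.1 in R 4.3.3), 2-sided, without covariates, and adjusted by Benjamini-Hochberg over all genes at 0.05. On simulated data of 19938 genes for this comparison, limma recovered 73% of 100 genes with a log2 change of 0.5, and 95% of 100 with a log2 change of 1. Of its 176 calls, 8 were false. Smaller changes, such as those of most members, were not simulated. The number of arrays limits the precision.

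The members and lists were chosen with earlier results of these data known. Values on every array are given for the vitamin K cycle, the Gla substrates, all called members and, in each other role, the gene with the largest difference. Of the other lists, called genes are named, up to 4. *Nqo1*, *Aifm2*, *Gas6*, *Serpinc1*, *Serpina10*, *Clu*, *Vtn*, *Serping1*, *Cebpa*, the *Foxa* genes and the bright markers of other cells were added after their values were seen. Tried beside it were limma-trend, a plain t-test (the methods' t-test), the mean of probe sets, a minimum mean of 5, normalisation by cyclic loess or to the array median, weights per array, the replicate block as fixed or random effect, each array left out in turn, and arrays C and D of miR-709 left out together. Promoter sequences are from RefSeq.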

Additional observations from a re-analysis of the deposited data

Results flagged for a closer look

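Among the 39 measured genes, 1 array stood apart from the other arrays of its group by Dixon's test, which flags about 1 in 20 groups by chance. *Cfb* read 11.03 on miR-709 array D, against 11.10 to 11.11 on the other miR-709 arrays and 10.71 to 10.95 on the Cel-239b arrays. The gap was 0.875 of the range of the miR-709 group, above the 95% critical value for 4 samples, and array D still lay above every Cel-239b array.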

How the results depend on the processing

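The median difference of the 39 genes (0.07 to 0.17) and of the Gla substrates (0.05 to 0.17) stayed above 0 in all 17 alternatives, and no called gene changed sign, while 10 uncalled members did in 29 cases, none larger than 0.095 in size. The 1 member called lower became 0 with the methods' t-test and stayed 1 in the others, from 1 to 1 when 1 array was left out. The 3 members called higher became 1 with the methods' t-test, 1 with cyclic loess, 0 to 2 when 1 array was left out and 0 without miR-709 arrays C and D, and they became 4 with limma-trend, with the mean of probe sets and among genes with a mean of at least 5. Over all genes, the 293 called lower became 113 with the methods' t-test, 181 to 244 when 1 array was left out and 92 without arrays C and D, and the 361 called higher became 113, 180 to 294 and 76. The fits that left arrays out had fewer arrays, whereas the methods' t-test used all 7. The cause of the lower counts was not tested.

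No strong pairing by replicate letter was seen: deviations of same-letter arrays correlated at 0.019 (B), 0.017 (C) and 0.046 (D). The highest correlation of the same miR-709 arrays with Cel-239b arrays of other letters was 0.02, −0.007 and 0.008. Such values cannot tell whether arrays shared an isolation. With the letter as a fixed replicate block, 0 members and 180 of all genes were called higher. With 3 and 4 arrays a difference of the size seen for most members (around 0.1) could not be told from 0, and a p above the threshold does not show that a level stayed the same. Protein and carboxylation were not measured here.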
